A study of Homo sapiens with 16 samples.

Results

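The 10 genes described here make, break down and regulate polyamines: SMOX, SAT1, ODC1, SRM, SMS, AMD1, PAOX, AZIN1, OAZ1 and OAZ2. They were taken by gene name from a count table of 58721 genes. The set was chosen by the level of SMOX, which was lower under both FOXA1 siRNAs in the RT112 line, so every SMOX difference that involves those RT112 libraries or the RT112 controls they were set against is a description with no test. The other 9 genes were added as the rest of the pathway.

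RNA was sequenced in 16 libraries from 2 established human bladder cancer cell lines, RT112, which the study assigns to the luminal papillary subtype, and SCaBER, assigned to the basal/squamous subtype. Each line was transfected with 10 nM of siFOXA1.1 or siFOXA1.2, directed against the transcription factor FOXA1, or of siControl.1 or siControl.2, with 2 libraries for each siRNA in each line. All libraries, controls included, thus came from cells that had received the transfection reagent and a siRNA. The study describes the knock-down as short-term, and the sequencing kit read the 3' ends of polyadenylated transcripts. RT112 was grown in RPMI and SCaBER in DMEM, so line and medium cannot be told apart.

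Polyamines (putrescine, spermidine and spermine) are small positively charged molecules that bind nucleic acids and are needed for cell growth. ODC1 makes putrescine from ornithine, AMD1 makes the aminopropyl donor from S-adenosylmethionine, and the synthases SRM and SMS use that donor to make spermidine and spermine. In the other direction SMOX oxidises spermine directly back to spermidine, whereas SAT1 acetylates spermidine and spermine so that they can be exported or oxidised by PAOX. The antizymes OAZ1 and OAZ2 bind ODC1 and direct it to degradation, and the antizyme inhibitor AZIN1 counteracts them.

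Library totals were 6622473 to 7604581 counts in RT112 and 4528513 to 6914951 counts in SCaBER. Levels are given as CPM, a gene's count relative to its library's total. The limit of detection was taken as 3 counts, which is 0.394 to 0.453 CPM in the RT112 libraries and 0.434 to 0.662 CPM in those of SCaBER. FOXA1 had 18.2 to 35.0 CPM in the 4 RT112 controls, 1.32 and 3.24 CPM under siFOXA1.1, and 9.18 and 16.0 CPM under siFOXA1.2. Its fall passed the test under siFOXA1.1 (log2 fold change -3.45 ± 0.473 SE, adjusted p = 1.39e-05) and did not under siFOXA1.2 (-1.10 ± 0.390, adjusted p = 0.215). SCaBER held little FOXA1 to lower, with 3 to 15 counts in the controls and 0 to 6 counts in the siFOXA1 libraries. The summed level of 8 luminal markers was 5343 to 6292 CPM in the RT112 controls and 1149 to 1460 CPM in the SCaBER controls, whereas 8 basal markers summed to 779 to 1008 CPM and 3383 to 5541 CPM. The luminal marker GRHL3 had at most 8 counts in the RT112 controls and at most 1 in the SCaBER controls. The basal marker KRT16 averaged 56.0 CPM in the RT112 controls and 30.4 CPM in the SCaBER controls, against the direction of the basal sum. In the RT112 siFOXA1 libraries the luminal sum, FOXA1 included, was 3700 to 4783 CPM, below all the controls, and the basal sum was 782 to 955 CPM. The means of single basal markers differed within that sum. The mean of CD44 went from 103 CPM in the controls to 198 CPM, and those of KRT5 and CDH3 were also higher. The mean of KRT17 went from 503 to 353 CPM, and those of KRT16, KRT6A, KRT14 and TP63 were also lower. In the SCaBER siFOXA1 libraries the sums were 786 to 1215 CPM and 4199 to 7304 CPM. The part of these shifts in the results below was not tested. Mitochondrial genes took 26.99% ± 1.77 of the counts in RT112 siFOXA1.1 (SD, n = 2) and 18.5% to 20.7% on average under the other 3 siRNAs. In SCaBER they took 10.7% to 11.9% on average. The CPM levels of the lines are relative to totals that include these counts. None of the counts of members below changed when mitochondrial genes were left out, an alternative added after the data had been seen.

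The promoters of 2 genes are shown first, since SRM and SAT1 had the largest tested changes of the 10 genes, in opposite directions. Each run is the 250 bases before the RefSeq transcript start on the coding strand of GRCh38.p14, in lower case, with the letters CACGTG, the E-box bound by basic helix-loop-helix factors, in capitals.
SRM (chr1:11060019-11060268, minus strand): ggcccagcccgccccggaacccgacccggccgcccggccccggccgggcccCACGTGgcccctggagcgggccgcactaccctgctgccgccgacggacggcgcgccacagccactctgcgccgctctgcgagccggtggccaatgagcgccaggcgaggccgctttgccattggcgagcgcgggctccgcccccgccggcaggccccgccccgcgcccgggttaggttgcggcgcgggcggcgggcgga
SAT1 (chrX:23782923-23783172, plus strand): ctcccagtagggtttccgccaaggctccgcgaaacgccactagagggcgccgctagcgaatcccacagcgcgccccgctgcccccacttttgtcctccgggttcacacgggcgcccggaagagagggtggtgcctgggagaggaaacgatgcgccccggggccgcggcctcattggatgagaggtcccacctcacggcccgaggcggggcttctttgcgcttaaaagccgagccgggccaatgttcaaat
RefSeq start windows, 250 bases before to 50 after the start, were given for 7 of the 10 genes, and CACGTG occurred on either strand in the window of SRM, with its first base 199 bases before the start, and in 1 of the 2 windows of ODC1, with 2 matches. The 7 genes had 10 windows between them, and the same letters occurred in 7.256% of all 35116 windows. Neither TGTTTAC nor TGTTTGC, 2 forms of the forkhead motif that do not overlap each other and were also searched on both strands, was found in a window of the 7 genes, against 3.423% and 3.89% of all windows. A match of letters is not a binding site, and the absence of a match concerns these windows alone.

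SMOX, the spermine oxidase on which the set was chosen, had 60.4 and 72.8 CPM in RT112 under siControl.1 and 62.3 and 45.4 CPM under siControl.2. Under siFOXA1.1 it had 16.1 and 15.2 CPM, and under siFOXA1.2 it had 15.6 and 27.2 CPM. All 4 siFOXA1 libraries were below all 4 controls, and the highest of the 4 was the second siFOXA1.2 library. The log2 fold change was -1.81 under siFOXA1.1 and -1.47 under siFOXA1.2, which is 3.52-fold and 2.77-fold lower. Between the FOXA1 siRNAs SMOX differed by a log2 fold change of -0.35, and this value turned to 0.11 without the second siFOXA1.2 library. Transcripts per cell and cell number cannot be told apart in bulk RNA, for SMOX as for the genes below.

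In SCaBER, where SMOX was not used for the choice, its level was 29.1 and 28.1 CPM under siControl.1, 43.3 and 30.5 CPM under siControl.2, 34.7 and 30.8 CPM under siFOXA1.1, and 36.7 and 49.1 CPM under siFOXA1.2. The siFOXA1 and control libraries overlapped. No difference passed the test: the log2 fold change was 0.04 under siFOXA1.1 (95% interval -0.56 to 0.63, adjusted p = 0.962) and 0.42 under siFOXA1.2 (-0.16 to 1.00, adjusted p = 0.996). The difference between the lines, -1.87 for siFOXA1.1 and -1.89 for siFOXA1.2, is given without a test because the RT112 values chose the gene.

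**Figure D1:**
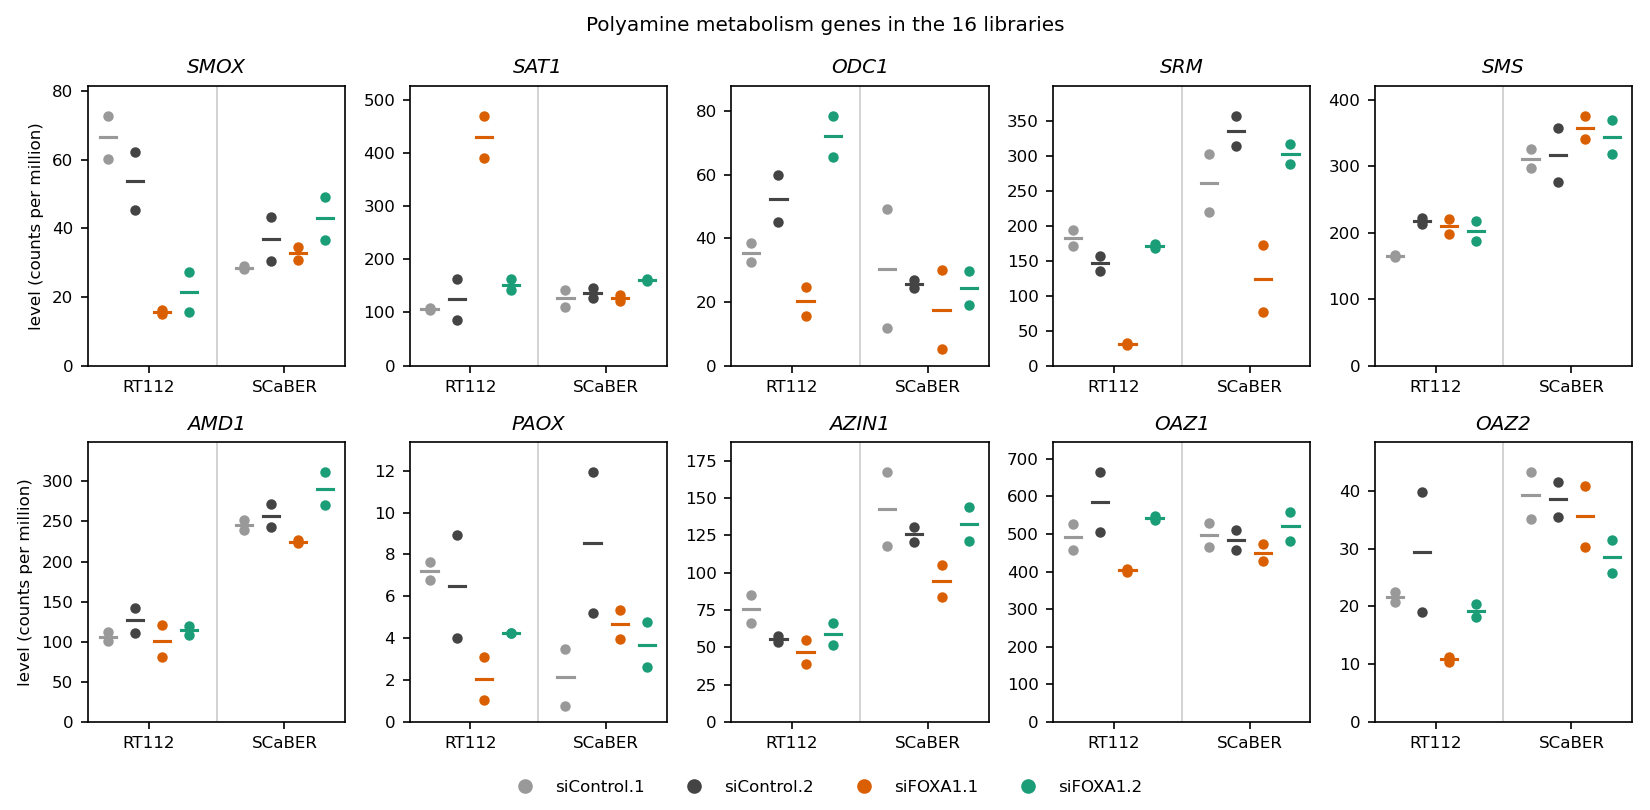
Level of each of the 10 genes in CPM (y axis, from 0, scaled per gene) in the 16 libraries, by line (x axis) and siRNA (colour). Points are libraries and bars are means of 2. In RT112, SMOX was lower under both FOXA1 siRNAs, whereas SAT1 (390 and 469 CPM) and SRM (29.8 and 32.4 CPM) stood apart from all other RT112 libraries under siFOXA1.1 alone. ODC1, OAZ1, OAZ2 and PAOX were likewise below all other RT112 libraries under siFOXA1.1. The share of all genes that stood apart in this way was not counted.

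Under siFOXA1.1 in RT112, 4 of the 9 tested genes passed: SAT1 rose, and SRM, ODC1 and OAZ2 fell. Among all 13462 genes tested in this comparison 14.0% rose and 15.1% fell, and the 1 and 3 of 9 stand beside those shares. By libraries alone, 5 of the 9 genes (ODC1, SRM, PAOX, OAZ1 and OAZ2) had both siFOXA1.1 libraries below all 4 controls, beside 27.2% of all genes tested. The median log2 fold change was -0.34 over the 9 tested genes and -0.02 over all genes.

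SAT1, the acetyltransferase, had 105 and 109 CPM under siControl.1, 164 and 85.9 CPM under siControl.2, and 469 and 390 CPM under siFOXA1.1. Both siFOXA1.1 libraries lay above every other RT112 library. The rise was 4.04-fold (log2 fold change 2.01 ± 0.171 SE, adjusted p = 3.92e-08). With siFOXA1.2 the level was 163 and 141 CPM, inside the range of the controls, and the log2 fold change of 0.41 did not pass (95% interval 0.04 to 0.78, adjusted p = 0.366).

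SRM, the spermidine synthase, had 194 and 171 CPM under siControl.1, 135 and 157 CPM under siControl.2, and 32.4 and 29.8 CPM under siFOXA1.1. The 2 siFOXA1.1 libraries were far below the rest, and the fall was 4.82-fold (log2 fold change -2.27 ± 0.159 SE, adjusted p = 2.64e-09). Under siFOXA1.2 its level was 169 and 174 CPM, within the control range (log2 fold change 0.09, 95% interval -0.20 to 0.37, adjusted p = 0.901).

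ODC1, which carries out the first step of synthesis, had 32.5 and 38.5 CPM under siControl.1, 45.1 and 59.8 CPM under siControl.2, and 24.7 and 15.6 CPM under siFOXA1.1. It fell 1.97-fold (log2 fold change -0.98 ± 0.245 SE, adjusted p = 0.00471), a call that was lost without the second siFOXA1.1 library (-0.71, adjusted p = 0.0615). Under siFOXA1.2 its libraries, at 65.6 and 78.4 CPM, lay above all 4 controls instead. That difference did not pass (log2 fold change 0.76, 95% interval 0.29 to 1.22, adjusted p = 0.106).

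OAZ2, the lower expressed of the 2 antizymes, had 20.8 and 22.5 CPM under siControl.1, 39.9 and 19.0 CPM under siControl.2, and 11.3 and 10.5 CPM under siFOXA1.1. It fell 2.14-fold (log2 fold change -1.10 ± 0.350 SE, adjusted p = 0.0227). The call rested on the first siControl.2 library, which stood above the other controls: without it the log2 fold change was -0.78 and the adjusted p = 0.157.

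The 5 genes that did not pass under siFOXA1.1 had log2 fold changes of -1.59 to 0.27. Among them OAZ1, the main antizyme, had 399 and 407 CPM against 457 to 664 CPM in the controls (adjusted p = 0.0622), and it was called with the replicate block, with library totals and with no filter. PAOX, the acetylpolyamine oxidase, had 1.03 and 3.10 CPM against 4.03 to 8.92 CPM, on 7 and 21 counts (adjusted p = 0.126). SMS, AMD1 and AZIN1 overlapped the controls.

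Under siFOXA1.2 in RT112, set against the same controls, 0 of the 9 tested genes passed with edgeR, where 1.78% of all genes did. DESeq2 also called 0, and 2 genes, ODC1 and SAT1, were under 0.05 before adjustment. SMOX was thus the one gene of the 10 whose RT112 libraries lay below all controls under both FOXA1 siRNAs, which is what it was chosen for.

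**Figure D2:**
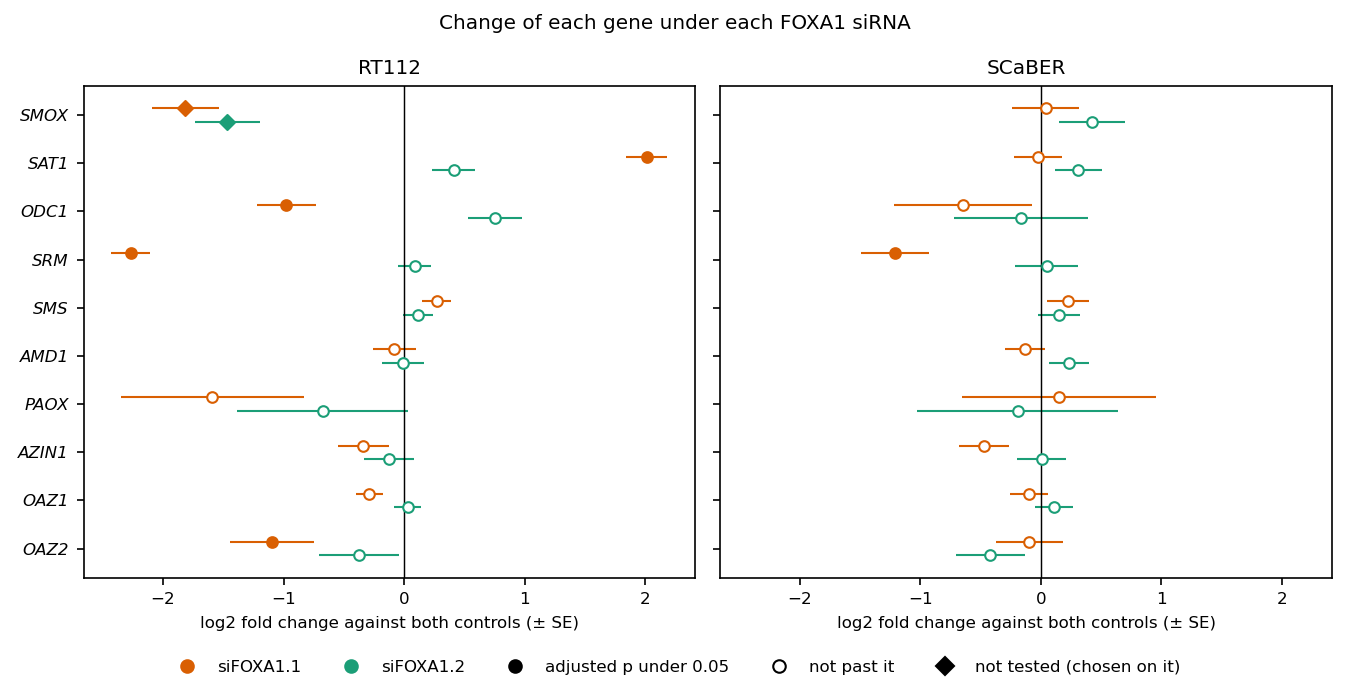
Log2 fold change (x axis, ± SE) of each gene (y axis) under siFOXA1.1 and siFOXA1.2 against both controls, in RT112 (left) and SCaBER (right). Filled circles passed an adjusted p of 0.05, open circles did not, and diamonds mark SMOX in RT112, which was not tested. SAT1 at 2.01 and SRM at -2.27 lie farthest from 0 in RT112, and SRM at -1.21 is the single filled point in SCaBER.

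The FOXA1 siRNAs were also set against each other. In RT112 3 of the 9 tested genes differed: SAT1 was 3.04-fold higher under siFOXA1.1 than under siFOXA1.2 (adjusted p = 1.18e-05), while SRM was 5.13-fold lower (adjusted p = 8.03e-09) and ODC1 3.32-fold lower (adjusted p = 0.000103). Of all genes, 11.4% were higher and 13.3% lower in this comparison. In SCaBER SRM differed, 2.39-fold lower under siFOXA1.1 (log2 fold change -1.26 ± 0.311 SE, adjusted p = 0.0317), and 1 of 10 genes lower compares with 2.42% of all genes. That call was lost without either siFOXA1.2 library, at -1.32 (adjusted p = 0.0896) and -1.19 (adjusted p = 0.108).

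The control siRNAs gave the background. Between siControl.1 and siControl.2 in RT112, edgeR called 0 of the 9 genes other than SMOX and 2.11% of all genes, and 3 of the 9 were under 0.05 before adjustment. In SCaBER edgeR called 0 of 10, beside 0.0671% of all genes, with 0 under 0.05 before adjustment. DESeq2 called 0 in both lines.

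With the FOXA1 siRNAs pooled, 0 of the 9 tested genes passed in RT112 (0.108% of all genes, and 1 of the 9 under 0.05 before adjustment). SAT1 had a log2 fold change of 1.43 in that fit (adjusted p = 0.248), and its siFOXA1 libraries ran from 141 to 469 CPM. DESeq2, and edgeR with no filter on low counts, called SAT1. In SCaBER 0 of 10 passed in the pooled comparison with edgeR (0.0084% of all genes, and 0 of the 10 under 0.05 before adjustment), and DESeq2 called 0 as well.

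In SCaBER SRM was the gene that fell. It had 302 and 220 CPM under siControl.1, 357 and 314 CPM under siControl.2, 172 and 76.9 CPM under siFOXA1.1, and 287 and 316 CPM under siFOXA1.2. Both siFOXA1.1 libraries were below all others, but they stood well apart from each other. The fall was 2.32-fold (log2 fold change -1.21 ± 0.281 SE, adjusted p = 0.0144), and it was the 1 gene of 10 to fall, where 4.07% of all genes fell. Its size rested on which siFOXA1.1 library was used, at -0.72 without the second and -1.95 without the first, and the call held both times. AMD1 and AZIN1 also had both siFOXA1.1 libraries below the controls, making 3 of 10 genes against 15.3% of all genes, but neither passed: AZIN1 had 83.9 and 105 CPM against 118 to 167 CPM (adjusted p = 0.206), and AMD1 had 223 and 227 CPM against 240 to 271 CPM (adjusted p = 0.733).

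ODC1 varied widely in SCaBER, with 11.8 and 49.1 CPM under siControl.1, 24.3 and 26.9 CPM under siControl.2, 5.11 and 29.9 CPM under siFOXA1.1, and 29.6 and 19.2 CPM under siFOXA1.2. The replicates of siControl.1 and those of siFOXA1.1 thus differed more than the means of the 4 siRNAs did. The log2 fold change of -0.65 under siFOXA1.1 did not pass (95% interval -1.87 to 0.57, adjusted p = 0.585), and ODC1 was called when the second siFOXA1.1 library was left out. SAT1, at 133 and 121 CPM under siFOXA1.1, stayed among its controls of 111 to 147 CPM (log2 fold change -0.02, 95% interval -0.44 to 0.39, adjusted p = 0.969). With siFOXA1.2 both edgeR and DESeq2 called 0 of 10 genes, beside 0.0373% of all genes by edgeR, and 0 were under 0.05 before adjustment. By libraries alone, SAT1 at 159 and 164 CPM under siFOXA1.2 lay above all its controls (log2 fold change 0.31, adjusted p = 0.989). OAZ2 at 31.5 and 25.8 CPM lay below its controls of 35.2 to 43.3 CPM. The share of all genes that did so was not counted.

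The difference between the lines in the siFOXA1.1 change was tested in a joint fit. SAT1 differed, by 2.02 ± 0.293 SE on the log2 scale (adjusted p = 0.000534): it rose 4.04-fold in RT112 and had a 0.984-fold level in SCaBER. It was 1 of 9 tested genes with a higher change in RT112, against 1.03% of all genes. SRM had a difference of -1.08 (95% interval -1.77 to -0.38), which did not pass (adjusted p = 0.0930) but did with the experiment batch as a replicate block (2 genes called, SAT1 and SRM) and with no filter. For the siFOXA1.2 change 0 of 9 genes differed between the lines by edgeR or DESeq2 (0.0453% of all genes by edgeR, and 0 of the 9 under 0.05 before adjustment).

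The sizes within each experiment batch are given for the called changes, whose direction was already fixed, as both siFOXA1.1 libraries lay beyond all 4 controls. On log2(CPM + 1), SAT1 in RT112 was higher under siFOXA1.1 by 1.83 in batch 1 and 2.00 in batch 2, and SRM was at -2.29 and -2.42. ODC1 was at -0.61 and -1.56, and OAZ2 at -1.28 and -0.92. SRM in SCaBER was at -0.93 and -1.76.

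The 10 genes were next compared by level in the control libraries, on the TPM scale, which divides counts by gene length although the reads come from transcript ends. In RT112 OAZ1 was highest at 307.7 ± 56.5 TPM (SD, n = 4), followed by SMS at 174 ± 33.7, SRM at 169 ± 20.6, SAT1 at 91.2 ± 28.6, SMOX at 39.9 ± 6.85, AMD1 at 32.6 ± 6.05, ODC1 at 29.2 ± 8.49, AZIN1 at 19.9 ± 3.63, OAZ2 at 6.57 ± 2.69 and PAOX at 5.89 ± 1.83. SMS and SRM overlapped, as did each neighbouring pair from SMOX to AZIN1 and the pair OAZ2 and PAOX. In SCaBER SRM was at 401 ± 69.6 TPM, SMS at 372.6 ± 48.6 and OAZ1 at 366 ± 35.6, and these 3 overlapped. SAT1 (135 ± 13.4), AMD1 (91.5 ± 3.83) and AZIN1 (53.5 ± 10.6) followed without overlap, and then SMOX (28.4 ± 5.82), ODC1 (24.4 ± 14.2), OAZ2 (12.9 ± 1.06) and PAOX (5.99 ± 5.37), each overlapping the next.

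**Figure D3:**
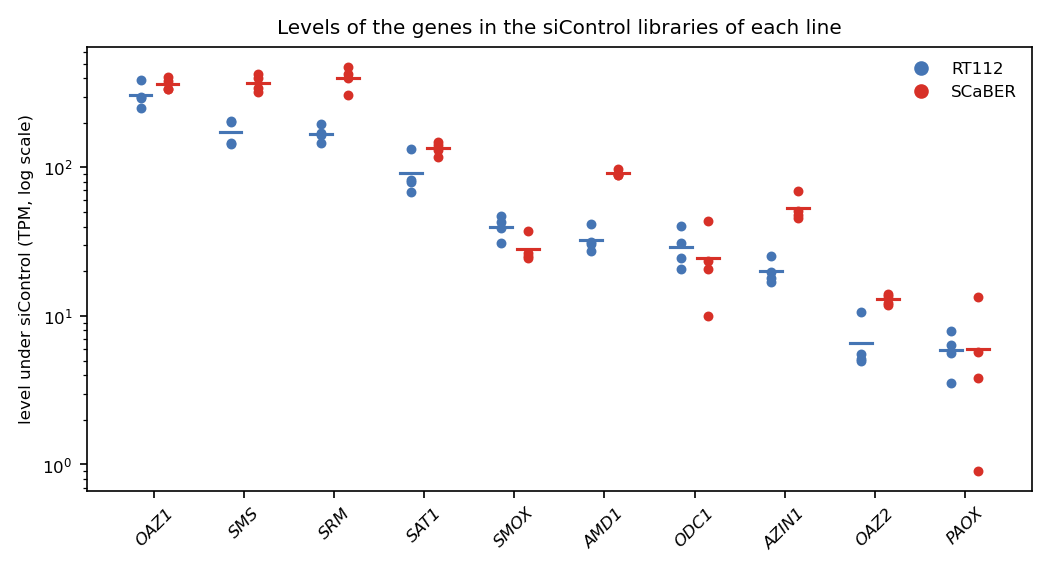
Level of the 10 genes in the siControl libraries in TPM (y axis, log scale), ordered by their mean in RT112 (x axis). Points are the 4 libraries of each line and bars are means. On this scale AMD1, AZIN1, SRM, SMS and OAZ2 lie higher in SCaBER without overlap, while the other 5 genes overlap between the lines. In CPM OAZ2 overlaps (19.0 to 39.9 in RT112, 35.2 to 43.3 in SCaBER) and SMOX does not. The share of all genes without overlap was not counted.

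By the count test 4 of the 9 tested genes were lower in RT112 than in SCaBER controls: AMD1 2.14-fold (log2 fold change -1.10 ± 0.138 SE, adjusted p = 1.4e-05), AZIN1 2.01-fold (-1.01 ± 0.184, adjusted p = 0.000402), SRM 1.80-fold (-0.85 ± 0.169, adjusted p = 0.00085) and SMS 1.63-fold (-0.70 ± 0.139, adjusted p = 0.00074). None was higher. Of all 12309 genes tested, 22.2% were lower and 21.2% higher in RT112. SMOX, given without a test, was the other way, at a log2 fold change of 0.89 from 45.4 to 72.8 CPM in RT112 and 28.1 to 43.3 CPM in SCaBER. On log2(TPM + 1) the SMOX difference was 0.48.

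A wider list of 34 genes covered supply of ornithine and methionine, salvage of the by-product methylthioadenosine, further antizymes and amine oxidases, transport, and hypusine, the modification of EIF5A that uses spermidine. In RT112 24 of them could be tested, and under siFOXA1.1 3 fell and 0 rose, beside the 15.1% of all genes that fell and the 14.0% that rose. ATP13A2, a lysosomal polyamine exporter, had 25.2 to 33.7 CPM in the controls and 3.66 and 0.442 CPM under siFOXA1.1, on 25 and 3 counts (log2 fold change -3.67 ± 0.516 SE, adjusted p = 1.82e-05). The log2 fold change was -5.82 without the first of these libraries, which leaves the one with 3 counts, and -2.87 without the second. MAT2A, which makes S-adenosylmethionine, had 64.2 to 113 CPM in the controls and 50.7 and 26.7 CPM under siFOXA1.1 (-1.12 ± 0.238, adjusted p = 0.00127). SLC7A1, a transporter of arginine and ornithine, had 56.7 to 77.7 CPM and then 31.9 and 32.4 CPM (-0.89 ± 0.201, adjusted p = 0.00216). The siFOXA1.1 libraries of all 3 lay below every control, as did those of 27.2% of all genes tested. These 3 were picked by the test on the same libraries, so their position adds nothing to the calls. How many of the 24 lay so was not counted. Under siFOXA1.2 edgeR and DESeq2 called 0 of 24, beside 1.78% of all genes by edgeR, and 3 were under 0.05 before adjustment.

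ATP13A2 at 21.4 CPM in both siFOXA1.2 libraries, MAT2A at 111 and 83.3 CPM and SLC7A1 at 56.0 and 72.1 CPM all differed from siFOXA1.1 (adjusted p = 0.000154, 0.00181 and 0.00637), the last not without the second siFOXA1.2 library (adjusted p = 0.104). SLC3A2, a subunit of amino acid transporters that also takes part in polyamine transport, was the 1 gene of the list that was higher under siFOXA1.1 than under siFOXA1.2 (log2 fold change 0.76 ± 0.195 SE, adjusted p = 0.00702). This call was lost on the TPM scale (0.44, adjusted p = 0.151) and without the second siFOXA1.1 library (0.49). Between these siRNAs in RT112, 11.4% of all genes were higher and 13.3% lower. In SCaBER 1 of 25 tested genes fell under siFOXA1.1, beside 4.07% of all genes, and this was MAT2A, from 157 to 215 CPM in the controls to 89.6 and 95.7 CPM (-0.90 ± 0.200, adjusted p = 0.0112). Without the first siControl.2 library of SCaBER its adjusted p was 0.0626. Under siFOXA1.2 in SCaBER edgeR and DESeq2 called 0 of 25, beside 0.0373% of all genes by edgeR, with 3 under 0.05 before adjustment. By edgeR 0 of 27 differed between the lines in their change under either FOXA1 siRNA, with 4 and 1 under 0.05 before adjustment, while DESeq2 called ATP13A2 for siFOXA1.1 and 0 for siFOXA1.2. Of all 15464 genes, edgeR called 160 higher and 240 lower in RT112 for siFOXA1.1, and 0.0453% for siFOXA1.2. The replicate block called ATP13A2 and SLC3A2 for siFOXA1.1, and it added AGMAT to MAT2A in SCaBER.

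**Figure D4:**
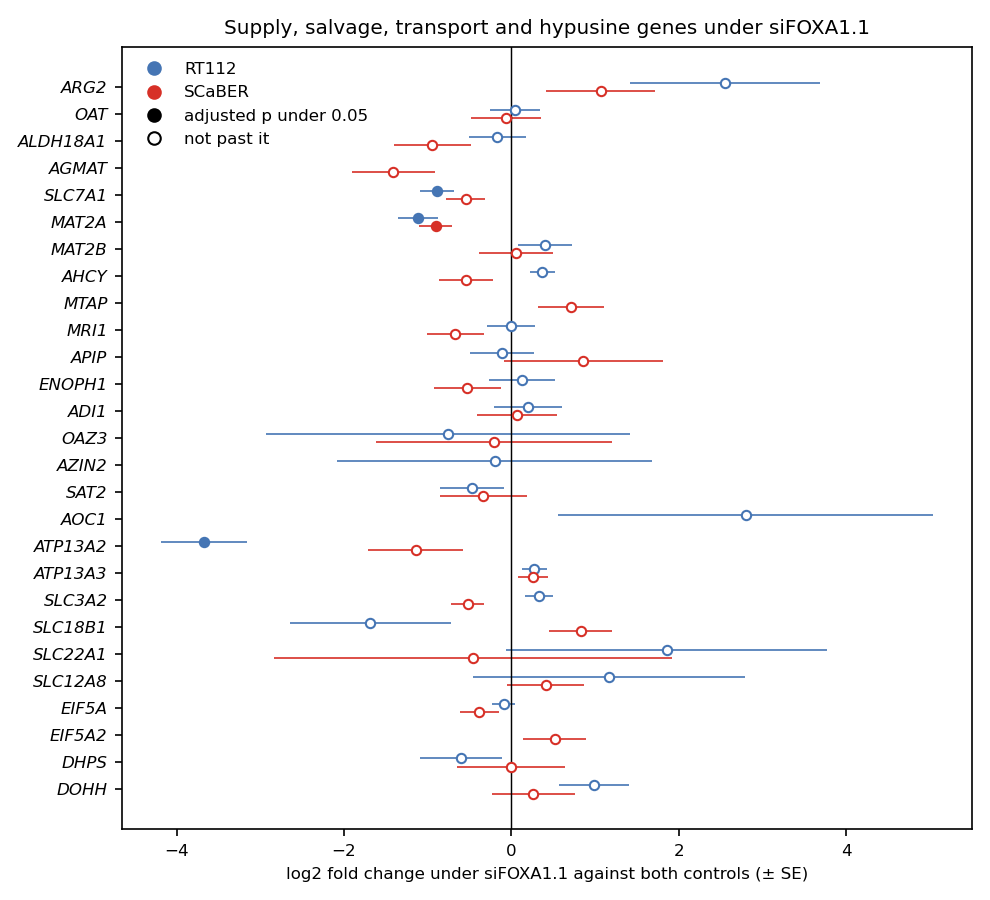
Log2 fold change (x axis, ± SE) under siFOXA1.1 against both controls for the genes of the wider list that could be tested (y axis), in RT112 and SCaBER. Filled points passed an adjusted p of 0.05. ATP13A2 at -3.67 in RT112 lies farthest from 0 among the filled points, and MAT2A is filled in both lines, at -1.12 and -0.90.

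MRI1, an isomerase of methylthioadenosine salvage, differed between the controls of RT112, at 40.4 and 41.8 CPM under siControl.1 against 17.2 and 20.7 CPM under siControl.2 (log2 fold change 1.18 ± 0.303 SE, adjusted p = 0.0465). It also differed between the FOXA1 siRNAs in SCaBER, at 12.7 and 13.9 CPM under siFOXA1.1 and 28.7 and 44.8 CPM under siFOXA1.2 (-1.46 ± 0.388, adjusted p = 0.0465). Both calls were lost in several of the alternatives, among them each in which a library of the comparison was left out.

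Between the control libraries of the lines, 10 genes of the wider list were lower in RT112 and 3 higher, of 24 tested, beside 22.2% and 21.2% of all genes. MTAP, the phosphorylase that starts methylthioadenosine salvage, AGMAT and EIF5A2, a second form of EIF5A, had 0 counts in all 8 RT112 libraries and 247, 454 and 370 counts over the 4 SCaBER controls. Against a floor of 3 counts over the 4 RT112 controls they were at least 103-fold, 189-fold and 154-fold lower in RT112. These 3 genes passed the filter on low counts through SCaBER alone, so that they could be called in no other direction. Apart from them, 7 genes were lower in RT112 and 3 higher. The 7 include SLC12A8, at 0 to 2.92 CPM in the RT112 controls and 5.74 to 15.7 CPM in those of SCaBER. It also passed the filter through SCaBER alone, so its direction was likewise fixed. APIP, another salvage enzyme, was the other way, 6.24-fold higher in RT112 (8.68 to 17.1 against 1.87 to 2.33 CPM, adjusted p = 0.000116). ATP13A2 was 2.48-fold higher (adjusted p = 0.00276) and AHCY 1.89-fold higher (adjusted p = 0.00109). The other 7 lower genes were SLC12A8, SLC18B1, SLC3A2, MAT2A, OAT, EIF5A and ATP13A3, with log2 fold changes of -2.94 to -0.49. OAT no longer passed with the replicate block (adjusted p = 0.054) or without any 1 of 4 libraries: the first (0.108) or second (0.115) RT112 siControl.1 library, the second SCaBER siControl.1 library (0.138) or the first SCaBER siControl.2 library (0.0917). ATP13A3 was lost without the first (0.0518) or second (0.0553) RT112 siControl.2 library or the first SCaBER siControl.1 library (0.0508), and AHCY was lost on log2(TPM + 0.1) (0.0521), all values being adjusted p.

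The genes whose pattern was most like that of SMOX were sought by Pearson's r of log2 CPM over the 16 libraries after each line's mean had been removed, among 8899 genes. They were BCAT2 (r = 0.89), SEPT9 (0.87), AGPS (0.86), PRKACB (0.84) and BTRC (0.83), and BCAT2, a mitochondrial aminotransferase of branched-chain amino acids, had 130 ± 16.7 CPM in the RT112 controls (SD, n = 4), 53.2 ± 0.711 under siFOXA1.1 and 69.3 ± 3.61 under siFOXA1.2 (SD, n = 2 each). Of the 8 other polyamine genes that reached a mean of 5 CPM in both lines, which leaves out PAOX, OAZ2 was the most similar to SMOX (r = 0.60) and SAT1 the least (r = -0.66). These values rest on the same libraries that chose SMOX and describe likeness only.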

How the data were processed

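Libraries were made from 2 cell lines with a 3' mRNA kit. The authors deposited raw counts per gene and TPM values (length-normalised counts that sum to the same total) for 16 libraries. Per the labels and the deposited settings, reads were trimmed with TrimGalore 0.6.2 (minimum quality 20, minimum length 10), and mapped with STAR 2.6.1a to hg38, with GENCODE 29 as the annotation. The study's methods name hg19, and 10 ng rather than 10 nM of siRNA. No coordinate of the deposited tables is used.

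Counts were tested with edgeR 4.0.16 in R 4.3.3: TMM, filterByExpr, the quasi-likelihood test, and Benjamini-Hochberg adjustment over all genes tested at 0.05. Each siRNA was set against both controls within a line, the lines were compared over their controls, and a joint fit tested line differences. All 10 members passed the filter in every comparison. In counts simulated for RT112 siFOXA1.1 against the controls (12605 genes), 100 of 100 genes changed by 2 on the log2 scale were called, and 55 of 100 changed by 1. The simulation gave every gene the same spread and changed no gene with few counts. Its recovery therefore does not carry over to genes such as PAOX or to SCaBER. Alternatives were library totals, no filter, DESeq2 1.42.0, limma 3.58.1 on TPM, the experiment batch as a block, and leaving out each library. The labels number libraries as experiment batches, and deviations of same-numbered libraries correlated at -0.0004 to 0.0453 in RT112 and 0.0183 to 0.308 in SCaBER. The labels do not say whether these were separate cultures, so p-values measure the spread between these libraries. Replicate libraries differed by more than counting noise, with a mean chi-square per gene of 8.56 to 36.8. The 3-count floor covers counting error only. The members and lists were chosen with earlier results of these data known, and the genes named follow the lists and the test threshold. Comparisons by the authors, and tables that hold only project settings, were not used.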

Additional observations from a re-analysis of the deposited data

Results flagged for a closer look

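Of 40 groups of 4 libraries (10 genes, siFOXA1 or siControl, each line), 3 held a library that stood apart from the other 3 by Dixon's criterion, where chance gives about 1 in 20. SMOX had 27.2 CPM in the second siFOXA1.2 library of RT112, above the other 3 siFOXA1 libraries. SMOX had 43.3 CPM in the first siControl.2 library of SCaBER, above the other controls. OAZ2 had 39.9 CPM in the first siControl.2 library of RT112, and its fall under siFOXA1.1 did not pass without that library. The change of SAT1 under siFOXA1.1 differed between RT112 and SCaBER by 2.02 on the log2 scale (adjusted p = 0.000534), with 2 of 2 RT112 libraries above all their controls and 2 of 2 SCaBER libraries within the range of theirs.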

How the results depend on the processing

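Scaling by library totals changed no count of members called by over 1.5 times. SAT1 was called with the FOXA1 siRNAs pooled in RT112 by DESeq2 and with no filter (1 gene, against 0). Under siFOXA1.1 in RT112 limma on TPM, with either pseudocount, called 7 genes against 4, adding AZIN1, OAZ1 and PAOX. For this and the other alternatives the share of all genes called is not given, so these counts have no background beside them. Under siFOXA1.2 in RT112 1 gene, ODC1, was called with no filter. Between the FOXA1 siRNAs in SCaBER limma called 0 genes against 1. The line difference for siFOXA1.1 gave 2 genes against 1 with no filter and with the replicate block, which also added OAZ1 under siFOXA1.1 in RT112 (5 genes) and lost no call of a member.

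With any 1 library removed, 0 to 2 genes were called for siFOXA1.2 in RT112, 1 to 2 for siFOXA1.1 in SCaBER, 0 to 2 between the FOXA1 siRNAs in SCaBER and 1 to 2 for the line difference under siFOXA1.1. SMOX ranged from -0.70 to 0.11 on the log2 scale between the FOXA1 siRNAs in RT112, and from -0.090 to 0.19 under siFOXA1.1 in SCaBER, so neither sign was stable. The rise of SAT1 under siFOXA1.1 in RT112 (1.73 to 2.28) and the falls of SRM there (-2.58 to -2.23) and in SCaBER (-1.96 to -0.72) passed in all 15 alternatives. The causes of these changes and of the others were not tested. PAOX, with 5 to 67 counts in the controls, had the largest standard error of the 10 genes under siFOXA1.1 in both lines.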
